A study of Drosophila melanogaster with 2 samples.

Results

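Genes for the factors that start, elongate and end protein synthesis were examined for binding of the Drosophila melanogaster transcription factor abrupt (ab), which carries a BTB domain and zinc fingers. The members were all protein-coding genes whose symbol starts with eIF, eEF or eRF, for initiation, elongation and release factors, and 54 of the 13945 protein-coding genes on the 6 chromosome arms qualified. A gene was counted when the summit of an enriched region lay in its territory, which is the gene body with 1000 bp on either side. The regions came from chromatin immunoprecipitation and sequencing (ChIP-seq) of strain ab-GFP, a transgenic line in which ab is stably expressed with GFP joined to its C-terminus, and chromatin was pulled down with an anti-GFP antibody. Whole embryos of both sexes, pooled and aged between 0 and 24 hours, made up 1 group of 2 biological replicates. No untagged line was analysed here, and whole embryos do not show in which cells a region was bound.

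Translation begins when the small ribosomal subunit, held by eIF1, eIF1A, eIF2, eIF3 and eIF5, takes the initiator tRNA to an mRNA whose cap is bound by the eIF4 factors. eIF2 is recharged by its exchange factor eIF2B, and eIF5B and eIF6 act on the joining of the large subunit. Elongation factors then deliver aminoacyl-tRNAs and move the ribosome, and release factors free the finished chain at a stop codon. In the fly embryo, control of cap-dependent initiation by proteins such as eIF4EHP is known to shape the gradients of patterning proteins.

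The authors' lists on genome build dm6 hold 30000 regions per replicate, 21376 of the pool of both and 1664 called reproducible. Each region carries the authors' signal value, an enrichment score on a scale that the files do not state. The reproducible peaks are the strongest pooled regions, with a weakest signal of 51.8, a median of 75.1 and a highest of 1007. Read depth was unknown, so the signals are given as the authors' values with no interval. Over the 1590 reproducible peaks with a summit of both replicates within 200 bp, the log2 ratio of replicate 2 to replicate 1 had a median of 0.05 and an SD of 0.88, and this SD is the measure of replicate spread used throughout.

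Reproducible peaks lay in the territories of 11 of the 54 genes (20.4%, 95% Wilson interval 11.8 to 32.9%, for counting error only), against 13.2% of all protein-coding genes. The 11 genes were eIF1, eIF2beta, eIF2Bbeta, eIF3c, eIF3g1, eIF3h, eIF4EHP, eIF5B, eIF6, eEF1alpha1 and eEF1gamma. The interval holds the share over all genes, so the count describes these genes and does not set them apart. Within 500 bp of an annotated start of the gene itself, called its promoter here, 8 of 54 genes (14.8%) had a peak, against 8.44% of all genes, and eIF2beta, eIF2Bbeta and eIF3g1 were those with a peak elsewhere in the territory only. By a stricter assignment, in which a peak belongs only to the nearest protein-coding start, 7 of 54 genes (12.96%) kept one, against 9.61%.

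Territories were of similar length in the 54 genes and in all genes. The median territory of the 54 genes was 3967.5 bp and that of all genes 4166 bp. Of 32 translation factor genes with a territory from 3000 to under 5000 bp, 7 had a peak (21.9%, against 10.1% of all genes of that length), and of 13 from 5000 to under 10000 bp, 2 did (15.4%, against 16.5%). Among the longest, 2 of 6 had one (33.3%, against 26.7%), and among those under 3000 bp, 0 of 3 (against 4.75%). The share was thus above that of all genes in the class of 32 genes, for which no interval was computed. The counts in the classes of 13, 6 and 3 genes are too small to compare with the shares of all genes.

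The 14 distinct peaks ranged in pooled signal from 52.1 to 556, with a median of 82.9. Only 2 of them, at eIF2Bbeta and eIF6, were above 100, and the other 12 lay between 52.1 and 93.7, below the upper quartile of the reproducible list, 102.6. Of the 14, 9 were above the median of all reproducible peaks, 75.1.

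**Figure D1:**
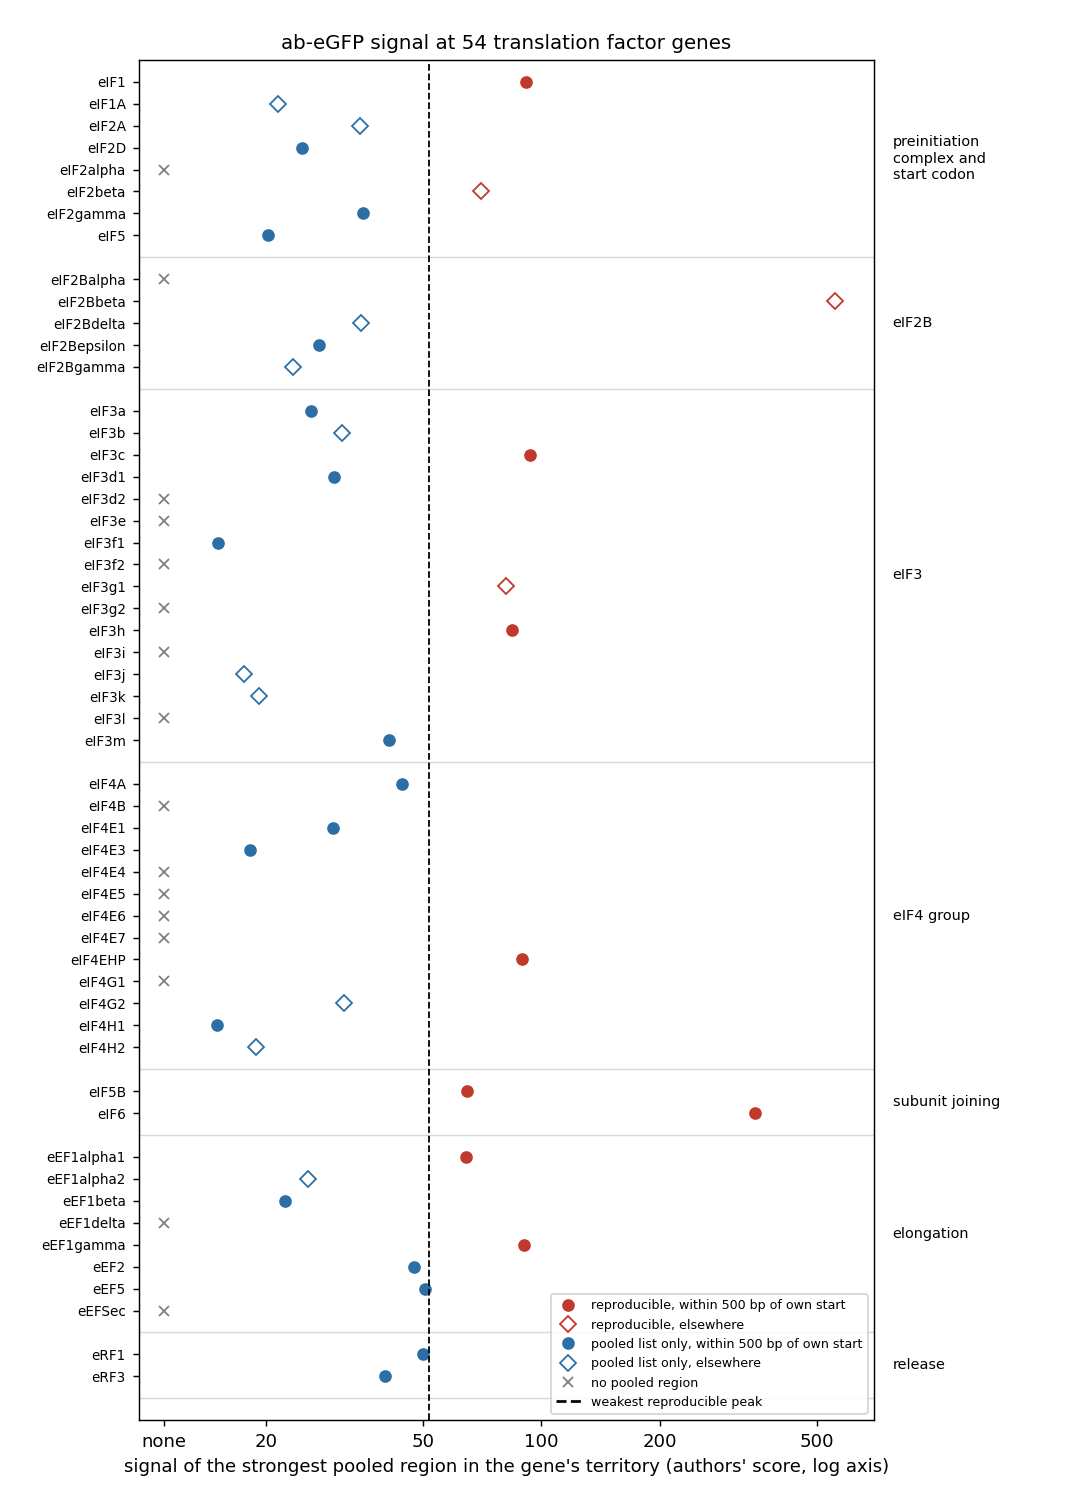
Strongest region of the pooled list in the territory of each of the 54 genes (horizontal log axis, authors' signal), with genes in rows grouped by role and the dashed line at the weakest reproducible signal, 51.8. eIF2Bbeta at 556 and eIF6 at 349 stand far to the right, 6 genes lie just left of the line between 40.1 and 50.7, and 16 genes have no pooled region.

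Of the 8 genes for the start-codon machinery, eIF1 and eIF2beta had a reproducible peak. eIF1 keeps the scanning subunit from starting at wrong codons. Its peak (chr3L:3222749-3223258) had a pooled signal of 91.5, with 48.5 in replicate 1 and 42.1 in replicate 2, which differed by less than the replicate spread. The summit lay 337 bp upstream of eIF1 but only 44 bp upstream of RpL28, a ribosomal protein gene transcribed the other way, so the pair shares this upstream region. Its sequence is shown because it holds the sole match within 50 bp of the 14 summits to the element TATCGATA, the binding site of the DNA replication-related element factor, here in capitals together with the overlapping word CGATAG on the other strand.
eIF1 and RpL28, chr3L:3222961-3223079, plus strand: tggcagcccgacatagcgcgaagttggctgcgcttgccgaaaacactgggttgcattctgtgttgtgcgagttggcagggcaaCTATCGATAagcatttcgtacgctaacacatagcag
This stretch, from the RefSeq Release 6 assembly (dm6), is the window around the summit trimmed to bases outside every annotated exon, as are those that follow.

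The peak assigned to eIF2beta, a subunit of the initiator tRNA carrier, had a signal of 70.5 (chr3L:12523969-12524478). It stood 2507 bp from the start of eIF2beta, past the end of the gene, and 203 bp upstream of ver, with the histone acetyltransferase gene Gcn5 starting 210 bp away. The replicates gave 55.5 and 15.9, a log2 ratio of -1.81 that was past the replicate spread, and the gene had no peak among the strongest 1664 regions of replicate 2. At its own promoter eIF2beta had only a pooled region of 28.5, 85 bp upstream, with 14.2 in replicate 1 and 8.27 in replicate 2. The strongest pooled regions of eIF2gamma, eIF2A, eIF2D, eIF1A and eIF5, whose product makes eIF2 hydrolyse its GTP, had signals of 35.3, 34.6, 24.7, 21.5 and 20.2. Those of eIF2A and eIF1A lay 3321 and 7100 bp from a start of the gene. At the promoter eIF2A had a pooled region of 16.3 and eIF1A had none. eIF2alpha, the subunit phosphorylated under stress, had no pooled region.

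The strongest peak of the whole set lay beside eIF2Bbeta, a subunit of the complex that reloads eIF2 with GTP (chrX:2703722-2704085). It ranked 4 among the pooled regions with a signal of 556, and it was 299 in replicate 1 and 273 in replicate 2, rank 5 in each. The summit was 659 bp upstream of eIF2Bbeta and 60 bp upstream of Ugalt, a nucleotide sugar transporter gene on the opposite strand, so it was in the territory of eIF2Bbeta without being within 500 bp of its start. The sequence under this summit is shown as that of the strongest peak, and none of the motifs searched occurs in it.
eIF2Bbeta and Ugalt, chrX:2703853-2703987, plus strand: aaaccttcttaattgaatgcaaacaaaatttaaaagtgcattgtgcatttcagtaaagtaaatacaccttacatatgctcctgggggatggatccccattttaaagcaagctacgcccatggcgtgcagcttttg
The other 4 subunit genes had no reproducible peak. Pooled regions of 34.8 for eIF2Bdelta, 27.3 for eIF2Bepsilon and 23.4 for eIF2Bgamma were found, and eIF2Balpha had none. Only the region of eIF2Bepsilon was within 500 bp of its gene's start.

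eIF3 is the large scaffold on the small subunit, and 3 of its 16 genes had a reproducible peak (18.75%, against 13.2% of all genes). At eIF3h, a subunit gene on 2L, overlapping peaks of 84.2 (chr2L:5052514-5053023) and 78.3 (chr2L:5052246-5052755) were listed. The stronger lay 11 bp inside a transcript, in its 5′ untranslated region, and 74 bp from the start of senju, and the weaker lay 279 bp inside, in an intron. At the stronger summit the replicates gave 18.2 and 60.3, a log2 ratio of 1.73 past the replicate spread, and at the weaker 29.5 and 50.5, a ratio of 0.77 within it. Replicate 2 was the higher at both. The peak at eIF3g1, an RNA-binding subunit, was listed at 81.6 (chrX:2608695-2609204) with 33.5 and 42.7 in the replicates. It lay 1386 bp from the start of eIF3g1, past its end, and 74 bp upstream of Smyd3, a protein methyltransferase gene. The word ACAGTG, in capitals on the printed strand as CACTGT, was among the 6-base words most frequent at the other reproducible peaks relative to their flanks, and this is the sole peak of the 14 that holds it within 50 bp of the summit.
eIF3g1 and Smyd3, chrX:2608877-2609025, minus strand: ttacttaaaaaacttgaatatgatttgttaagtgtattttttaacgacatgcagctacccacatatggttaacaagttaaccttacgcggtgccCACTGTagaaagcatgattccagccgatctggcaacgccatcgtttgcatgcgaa

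The third eIF3 gene, eIF3c on 2R, encodes a core subunit and had its peak (chr2R:17665433-17665942) 10 bp inside the gene, in the 5′ untranslated region. The pooled signal was 93.7, the highest after eIF2Bbeta and eIF6. It was the higher in replicate 1, at 68.2 and rank 242, against 20.4 and rank 4442 in replicate 2, a log2 ratio of -1.74 past the replicate spread. eIF3c lost its peak with the strongest 1664 regions of replicate 2 alone. Among the remaining subunits, eIF3m (41.0), eIF3b (31.1), eIF3d1 (29.8), eIF3a (26.0), eIF3k (19.3), eIF3j (17.6) and eIF3f1 (15.1) had weaker pooled regions. Those of eIF3b, eIF3k and eIF3j lay 646, 729 and 2032 bp from a start of the gene. eIF3e, eIF3i, eIF3d2, eIF3f2, eIF3g2 and eIF3l had no pooled region, so subunits of this one complex ranged from no listed region to a signal of 93.7.

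In the eIF4 group, which binds and unwinds the capped mRNA, 1 of 13 genes had a reproducible peak (7.69%, against 13.2% of all genes). This gene was not one of the core cap-binding complex. The RNA helicase gene eIF4A came nearest, with a pooled region of 44.2 at rank 2258, 287 bp upstream. Its strongest promoter signals were 9.39 in replicate 1 and 32.6 in replicate 2, but replicate 1 also had a region of 22.7 at 523 bp upstream, just outside the 500 bp limit. With the strongest 1664 regions of replicate 2 alone eIF4A was counted, and with those of replicate 1 it was not. The cap-binding protein gene eIF4E1 had 29.6 and the scaffold gene eIF4G2 31.5, and eIF4H1 (15.1) and eIF4H2 (18.8), like eIF4B cofactor genes of the helicase, were lower. The regions of eIF4G2 and eIF4H2 lay 1086 and 996 bp from a start of the gene. eIF4B and the scaffold gene eIF4G1 had no pooled region.

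The gene with a peak was eIF4EHP, whose product binds the cap without recruiting the scaffold and so represses chosen mRNAs, among them those of caudal and hunchback in the fly embryo. The gene is the longest of the 54, at 45884 bp, and its number of peaks was not compared with genes of like length. It had 3 peaks, more than any other of the 54 genes. The main one (chr3R:24108796-24109305) had a signal of 89.6, with 43.5 in replicate 1 and 36.9 in replicate 2, and lay 91 bp upstream of the gene. A second one (chr3R:24109060-24109569) overlaps it, at 56.7, with its summit 355 bp upstream of eIF4EHP and 21 bp upstream of CG18428 on the other strand. Replicate 1 had a summit of 48.1 there and replicate 2 none within 200 bp. The sequences under both summits are shown because both lie between the starts of a divergent gene pair, with a gap between them that is not printed, and neither holds a searched motif.
eIF4EHP, main summit, chr3R:24108976-24109126, minus strand: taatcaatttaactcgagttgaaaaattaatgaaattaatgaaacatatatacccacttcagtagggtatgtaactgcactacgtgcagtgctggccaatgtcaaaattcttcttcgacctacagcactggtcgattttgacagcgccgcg
eIF4EHP, summit near CG18428, chr3R:24109240-24109335, minus strand: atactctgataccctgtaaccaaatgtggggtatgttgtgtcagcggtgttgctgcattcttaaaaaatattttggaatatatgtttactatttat
The last of the 3 peaks (chr3R:24098837-24099346) was in an intron 9868 bp into the gene, with 22.7 and 28.9 in the replicates. At 52.1 it was close to the weakest reproducible signal.

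Both genes that act on the joining of subunits had a peak, against 13.2% of all genes. With 2 genes this is not a result about the role, and their median territory was 18688 bp, against 4166 bp. eIF6 keeps the large ribosomal subunit from joining too early and takes part in its assembly. Its peak on 2R (chr2R:23850253-23850580) had a pooled signal of 349 at rank 23, with 181 in replicate 1 and 164 in replicate 2, ranks 24 and 29. The summit lay 101 bp upstream of eIF6, the nearest protein-coding start, which makes it the strongest peak at a promoter of these genes. The start of the antisense RNA gene asRNA:CR45928 was nearer, 72 bp from the summit. eIF5B, a GTPase that brings the large subunit in, had a peak of 64.8 (chr3L:3460482-3460991), 134 bp upstream of its nearest transcript start and inside a longer transcript. Its replicate signals of 37.5 and 24.0 differed by less than the replicate spread, but with the regions of replicate 2 alone eIF5B was not counted.

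For elongation, 2 of 8 genes had a reproducible peak, against 13.2% of all genes, and 8 genes are too few to compare with that share. Both code for parts of the machinery that loads aminoacyl-tRNA. The genes eEF1alpha2, eEF1beta and eEF1delta of this class belong to it too, so 2 peaks are not a result about this function. At eEF1alpha1, the tRNA-carrying GTPase, the signal was 64.4 (chr2R:11891782-11892291), with 33.4 and 43.1 in the replicates, and the summit lay 85 bp upstream of a start inside a longer transcript. At eEF1gamma, a subunit of its exchange factor, it was 90.5 (chr3R:29219936-29220445), 19 bp inside the gene. The replicates gave 23.8 and 66.7 there, a log2 ratio of 1.49 past the replicate spread, and eEF1gamma was not counted with replicate 1 alone. The remaining exchange factor genes had a pooled region of 22.4 (eEF1beta) or none (eEF1delta), and eEF1alpha2, the other copy of the carrier, had 25.6 at 4446 bp from its start.

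Both eEF5, which helps the ribosome through stretches of proline, and eEF2, the translocase, stood just under the weakest reproducible signal. The pooled region of eEF5 was 50.7 at rank 1729, 50 bp upstream, with 16.4 in replicate 1 and 41.3 in replicate 2. That of eEF2 was 47.6, 5 bp inside the gene, with no region of replicate 1 within 500 bp and 36.8 in replicate 2. Both were therefore higher in replicate 2, and both were counted with its strongest 1664 regions. The selenocysteine factor gene eEFSec had no pooled region.

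Neither of the 2 release factor genes had a reproducible peak, against 13.2% of all genes. Both had a pooled region at the promoter, against 40.4% of all genes. eRF1, which reads the stop codon, had a pooled signal of 49.96, 143 bp upstream, with 36.5 in replicate 1 and 27.4 in replicate 2. eRF3, its GTPase partner, had 40.1, 141 bp upstream, with 26.0 and 30.1. Both were counted with the strongest 1664 regions of replicate 1 and neither with those of replicate 2.

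Between replicates, the 13 peaks with a summit in both had a median log2 ratio of -0.13 and an SD of 1.04, against 0.05 and 0.88 over all 1590 such peaks. At 4 of the 13 (eIF3c, eIF2beta, eEF1gamma and the stronger eIF3h peak) the replicates differed by more than the SD, and at 420 of the 1590. Replicate 1 was the higher at eIF3c and eIF2beta and replicate 2 at eEF1gamma and eIF3h, so no replicate led throughout. Of the 14 peaks, 11 were among the strongest 1664 regions of replicate 1, 9 among those of replicate 2 and 7 among both. Of all 1664 reproducible peaks, 1291, 1157 and 860 were, so these genes' peaks were shared between replicates about as often as others. Counted with a single replicate, 12 genes had a peak by replicate 1 (22.2%, against 14.2% of all genes) and 11 by replicate 2 (20.4%, against 11.8%). The totals were close, but the genes were not the same, since 10 and 8 of them were among the 11 genes of the reproducible list.

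**Figure D2:**
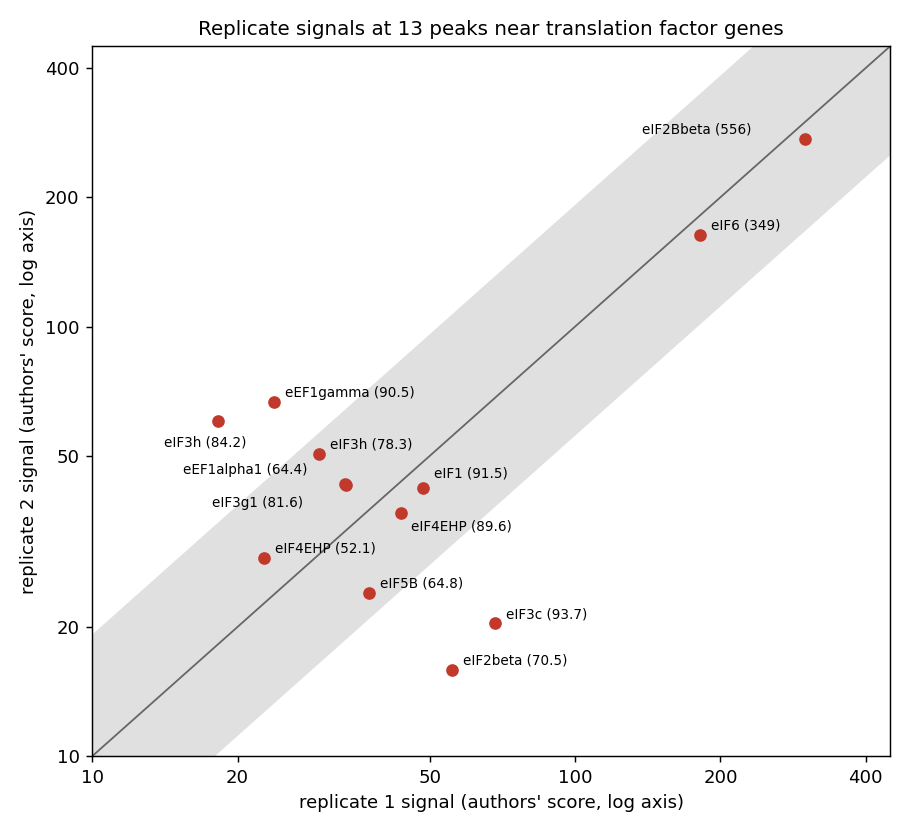
Signal of replicate 1 (horizontal, log axis) and replicate 2 (vertical, log axis) at the 13 peaks with a summit of both within 200 bp, each labelled with its gene and pooled signal, with equal signals on the line and the median log2 ratio of 0.05 ± 0.88 (SD, 1590 peaks) in grey. eIF2Bbeta and eIF6 lie near the line, 4 peaks lie outside the band, and the points of eIF3g1 and eEF1alpha1 fall on each other.

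The 14 peaks lay at different places relative to the genes. Of the 10 within 500 bp of a start of a member, 6 were upstream (60.0%), with a median of 88 bp upstream and a range from 355 bp upstream to 279 bp inside. For the other protein-coding genes, 88.3% of 1256 pairs of a gene and a peak at its promoter had the peak upstream, with a median of 129 bp upstream, and a peak between divergent genes counts there once for each gene. The 4 peaks inside were those of eIF3c, eEF1gamma and eIF3h, and 3 of these 4 were within 19 bp of the start. Over all 28 genes with a pooled region at the promoter, 19 of the strongest regions were upstream (67.9%). At 5 of the 10 promoter peaks protein-coding genes started on both strands within 500 bp of the summit, against 339 of 883 reproducible promoter peaks (38.4%).

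**Figure D3:**
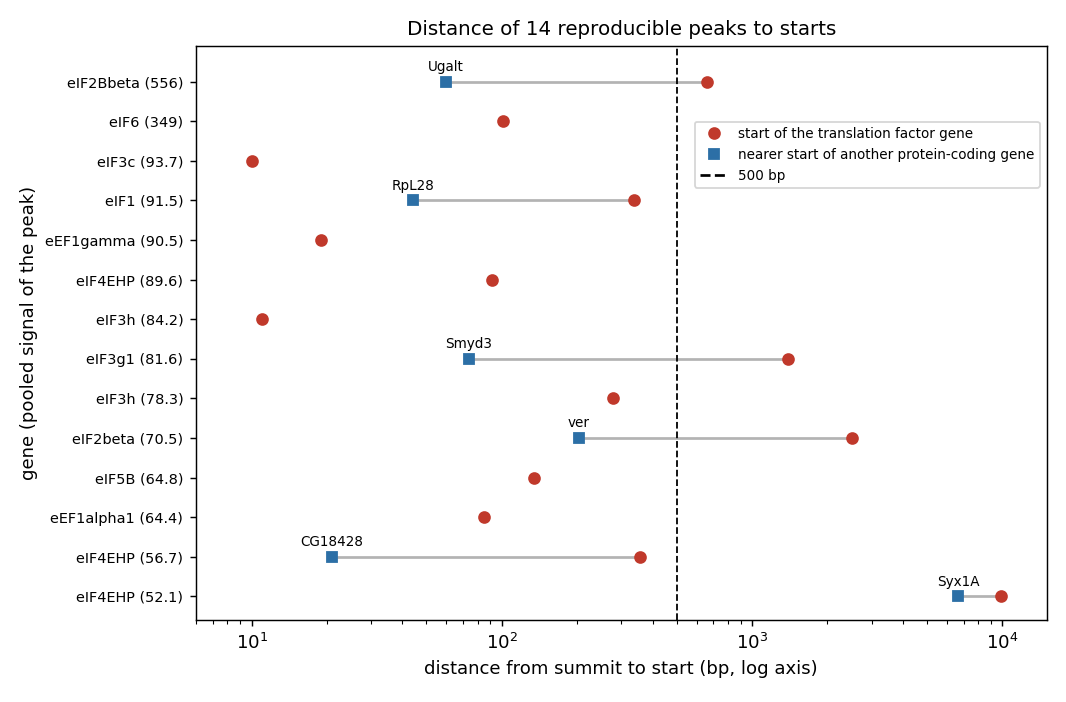
Distance from the summit of each of the 14 reproducible peaks to the nearest start of the translation factor gene (circles) and, where nearer, to the start of another protein-coding gene (squares), on a log axis in bp, with the dashed line at 500 bp. At 6 peaks, near Ugalt, RpL28, Smyd3, ver, CG18428 and Syx1A, another gene's start is the nearer.

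Many more of these genes had a weaker region. In the pooled list 38 of 54 (70.4%) had a region in the territory, against 63.4% of all genes, and 28 (51.9%) had one at the promoter, against 40.4%. At the promoter a region of replicate 1 was listed for 31 genes (57.4%, against 41.6%) and a region of replicate 2 for 34 (63.0%, against 45.8%). Only eIF3g2, eIF3l and eIF4E6 had no region in any list. The median signal at the 28 promoters was 37.7, and at all 5635 promoters with a pooled region it was 28.3.

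The number of genes with a promoter region grew as weaker regions were let in. With the strongest 3000 pooled regions it was 14 of 54 (25.9%, against 13.8% of all genes), with 5000 it was 17 (31.5%, against 19.8%) and with 10000 it was 23 (42.6%, against 28.9%). The 6 genes that entered between 1664 and 3000 regions were eEF5, eRF1, eEF2, eIF4A, eIF3m and eRF3, with signals from 40.1 to 50.7. The strongest pooled region outside the reproducible list and the weakest inside it both had a signal of 51.8, so no gap in signal separates these genes from those with a peak.

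**Figure D4:**
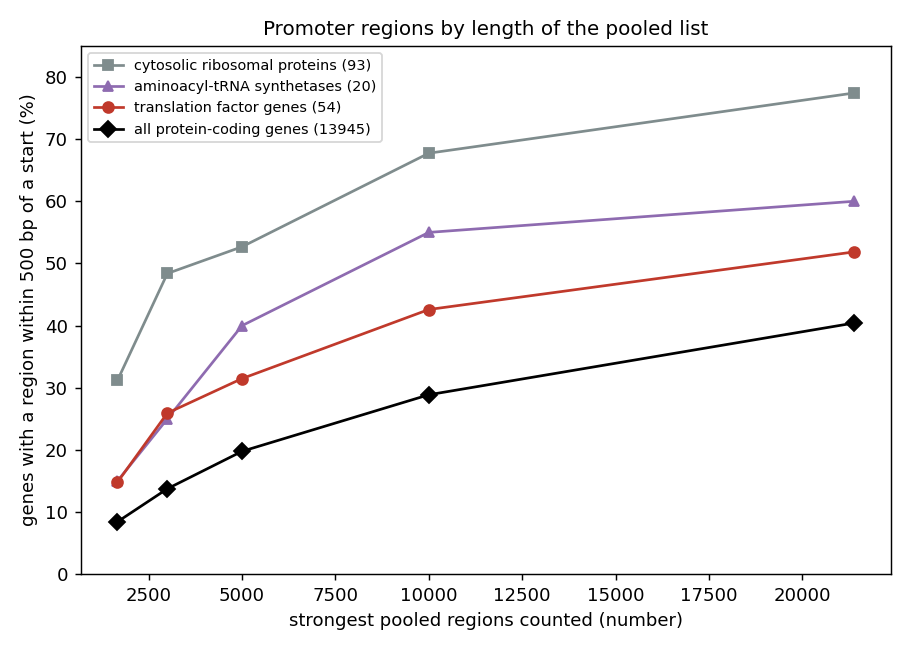
Share of genes (percent) with a region within 500 bp of a start, against the number of strongest pooled regions taken, for the 54 translation factor genes, ribosomal protein genes, aminoacyl-tRNA synthetase genes and all protein-coding genes. The translation factor genes run from 14.8% to 51.9%, above all genes (8.44% to 40.4%) and below ribosomal protein genes (31.2% to 77.4%) at every depth plotted.

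Some factors have additional gene copies. Of 10 genes listed as such copies (eIF3d2, eIF3f2, eIF3g2, eIF4E3, eIF4E4, eIF4E5, eIF4E6, eIF4E7, eIF4H2 and eEF1alpha2), 0 had a reproducible peak and 1, eIF4E3 with 18.2, had a pooled region at the promoter, against 13.2% and 40.4% of all genes. With 10 genes, a count of 0 reproducible peaks is not a result about the copies. The list leaves out eIF4G2, with 27.9 at its promoter, and the eIF4E relative eIF4EHP, with 3 peaks. Several of the 10 are known for expression in the testis or other limited tissues. Of the other 44 genes 11 had a reproducible peak, 8 of them at the promoter (18.2%, against 8.44% of all genes). A pooled region at the promoter was found for 27 (61.4%, against 40.4%). Leaving out the 10 copies raises these promoter shares by itself, from 14.8% and 51.9% of the 54 genes. Copies were not left out of all genes, so the shares of the 44 genes lack a like background.

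Each sequence element searched was found at no more than 1 of the 14 peaks. Both strands were searched up to 50 bp from each summit. TATCGATA was present at 1 of the 14 peaks (eIF1), against 1.86% of all reproducible peaks and 6.30% of all promoter windows of the same length. GGTCACAC was present at 1 (eEF1alpha1, against 0.721% and 3.06%), GAGAG at 1 (eIF3c, against 11.4% and 13.3%) and TATAAA at 1 (eIF6, against 15.8% and 20.2%). CAGCNCTA and CAGGTA were present at 0, against 1.56% and 1.36%, and 1.98% and 2.27%. Of 3 words taken from the 1650 reproducible peaks outside these genes' territories, ACACTA was at 0 of the 14 (5.71% of all peaks, 4.40% of promoters), ACAGTG at 1 (eIF3g1, 12.4% and 5.41%) and CGATAG at 1 (eIF1, where it overlaps TATCGATA, 5.65% and 12.5%). With 14 peaks each of these counts is too small to compare with the shares. The GC content within 50 bp of the summit had a median of 43.6% at the 14 peaks, ranging from 34.7 to 54.5%, against a median of 37.6% and quartiles of 31.7 and 43.6% over all reproducible peaks. Of the 14, all but the intron peak of eIF4EHP lay within 500 bp of a protein-coding start, as did 883 of 1664 reproducible peaks. The GC content was not compared with promoter peaks alone.

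Genes of the translation apparatus are known for a pyrimidine-rich initiator at the start of transcription. The letters CTTT, with the C within 5 bases of an annotated start and read on the gene's strand, were found at 7 of 54 genes (12.96%), against 8.07% of all genes and 58 of 93 ribosomal protein genes (62.4%). The 7 were eEF1alpha1, eEF2, eEF5, eIF4A, eIF3m, eIF3f1 and eIF3i. Of them 1 had a reproducible promoter peak (eEF1alpha1, 14.3%), as had 7 of the 47 without these letters (14.9%). Over all protein-coding genes the shares were 12.4% with these letters and 8.09% without. The genes eEF5, eEF2, eIF4A and eIF3m are also among the 6 just under the weakest reproducible signal, a grouping seen after the values were known.

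Other genes of protein synthesis were read the same way. Of 93 cytosolic ribosomal protein genes 32 had a reproducible peak (34.4%, against 13.2% of all genes), led by RpS27 at 181, RpL7 at 164 and RpS20 at 155. The strongest ribosomal protein peak was thus below that of eIF6. It was also below the peak assigned to eIF2Bbeta, whose summit was nearer to Ugalt (60 bp) than to eIF2Bbeta (659 bp). Of 20 aminoacyl-tRNA synthetase genes 4 had a peak, namely ThrRS (83.0, 130 bp upstream), GluProRS (78.6, 238 bp upstream and nearer to AP-1sigma), alpha-PheRS (57.2, nearer to CG17982) and SerRS (53.7, 6 bp inside). At alpha-PheRS the replicates gave 17.2 and 37.0, past the replicate spread. Mitochondrial translation factor genes had a peak in 0 of 7 cases. Of 5 rescue and recycling genes 1 did, HBS1 at 59.5, where the summit was 19 bp upstream of Rap1 and 2881 bp from the start of HBS1. The replicates gave 51.6 and 10.4 at this summit, past the replicate spread.

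Among 14 genes that act on the cap-binding complex or control translation, 5 had a peak (35.7%, against 13.2% of all genes) and 9 had none. Their territories were longer, with a median of 8982.5 bp against 4166 bp. Lk6, a kinase of eIF4E, had a signal of 522, with 236 in replicate 1 and 299 in replicate 2, and its summit was 967 bp upstream. The gene larp, for an RNA-binding protein, had 5 peaks, the strongest at 305.0 with 168 and 155 in the replicates. Thor, the fly eIF4E-binding protein, had 81.0 at 16 bp upstream, where the replicates gave 18.0 and 66.5, past the replicate spread. The poly(A)-binding protein gene pAbp had 66.1 and its inhibitor gene Paip2 62.3.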

How the data were processed

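The authors' deposited region lists of 2 replicates, their pool and the reproducible set on dm6 were used. Per the deposited description files, regions of each replicate and of the pool were called against a control, and reproducible peaks were made from them by the irreproducible discovery rate method. For the peak caller, aligner and versions, names are not given in the sources used here. Deposited signal values are the authors' score per region, on a scale the files do not state. They were used to describe and rank regions within a list and, as log2 ratios, to set the replicate lists beside each other. The replicates were called separately, so these ratios are relative to their own median and SD over all matched peaks, and equal ranks in different lists are not equal binding. Deposited −log10 q-values had an upper limit of 3.38, shared by 1213 reproducible peaks, and were not used to rank. The dm3 lists were not used, and no coordinates were converted. Read depth was unknown, and intervals cover counting error only. Nothing in the labels says whether the biological replicates came from separate collections.

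Genes and transcript starts came from Ensembl release 115 (BDGP6.54, dm6 coordinates), and bases were read from the RefSeq assembly. All 54 members had the same coordinates in both. Counts were made with Python 3.11.15, numpy 2.4.6, pandas 2.3.3 and statsmodels 0.14.6, figures with matplotlib 3.10.9, and the counting was tested on simulated data. A peak counts for every gene whose territory holds its summit. Replicate regions were matched to a peak by summits within 200 bp. With 1 group no test between conditions was possible.

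Members and lists were chosen with earlier results of these data known. Named genes are all members, genes whose start is nearest to a member's peak, and listed genes with a peak (for ribosomal proteins, the 3 strongest). Genes that start near a summit on the other strand were named after their values were seen. In the lists, 2 symbols were matched through older names and Tor was not matched to 1 gene. The symbol GluRS and GluProRS are 1 gene here. Alternatives were gene bodies alone, shorter flanks, other promoter widths, the nearest start only, the 832 peaks above the median signal, single replicates, all pooled regions and wider motif windows. Pooled regions by rank, peaks with both replicate summits, the 6-base words and CTTT were added after seeing the data.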

Additional observations from a re-analysis of the deposited data

How the results depend on the processing

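Of the 54 genes, the 11 with a reproducible peak became 6 with the gene body alone, 7 with the nearest protein-coding start only and 38 with all pooled regions. Other settings gave 8 to 12: 9 with 500 bp on either side, 9 within 1000 bp of a start and 8 with the 832 stronger peaks. With a single replicate in turn the count was 11 to 12, of which 8 and 10 genes were shared. The share of all protein-coding genes was not counted with the gene body alone, with 500 bp on either side, within 1000 bp of a start or with the 832 stronger peaks. Whether the 54 genes change differently from all genes under these settings was therefore not tested. The 8 genes with a promoter peak became 14, 17, 23 and 28 with the strongest 3000, 5000, 10000 and all pooled regions, and ranged from 6 to 9 under the other settings. For those other promoter settings the share of all genes was not counted either. The 14 distinct peaks became 7 with the gene body alone. Within 100 bp of the summit TATCGATA was at 3 of 14 peaks (3.43% of all peaks) and TATAAA at 3 (29.4% of all peaks), in place of 1 each. Each setting admits or drops regions by its own rule, and why a given gene changed was not tested. Depth, and with it what a missing region means, was unknown, and a gene without a listed region cannot be called unbound.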
